A study of Zea mays with 24 samples.

Results

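The plastid genome of maize is represented in these data by 114 features whose identifiers start with ZemaCp, out of 46430 features counted in every library. All 114 were taken by that identifier alone, without use of their counts. The RefSeq annotation of Zm-B73-REFERENCE-NAM-5.0 included all 114, gave 85 of them a gene symbol and left 29 as unnamed open reading frames, which are called here by their identifiers. It classed 110 as protein-coding and 4, the copies of trnI and trnA, as transfer RNA, and 8 symbols stood for 2 copies each.

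Plastids keep a small circular genome that encodes subunits of the photosynthetic complexes, of an NADH dehydrogenase-like complex, of a bacterial-type RNA polymerase and of the plastid ribosome. In most land plants part of this circle is present as an inverted repeat, so that genes such as rps7, ndhB and rpl2 exist as near-identical copies. In cereal endosperm the plastids are amyloplasts, which store starch and do not photosynthesise.

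The samples were endosperms of maize, the nutritive tissue of the kernel, taken at 15 days after pollination, with 5 to 10 endosperms pooled for each library. Libraries were made by MP3RNA-seq, in which reads come from transcript 3′ ends. The 24 libraries formed 8 groups of 3. In the genotype experiment, wild type was set against a ZmICE1a mutant (the gene is related to the transcription factor ICE1 of Arabidopsis), and neither group received a hormone. In the IAA experiment, wild type endosperm treated with the auxin indole-3-acetic acid was set against untreated wild type. In the JA experiment, wild type untreated and mutant treated with jasmonic acid, a defence hormone, carried labels that did not conflict. The other groups of that experiment did carry conflicting labels. By the names of the deposited counts 1 group was mutant without JA and the other was wild type with JA, and these are called the named mutant untreated and the named wild type treated groups. By title the former was wild type treated and the latter mutant untreated, and the genotype fields followed the names while the treatment fields followed the titles. Under the titles each comparison below holds the same libraries and its values stand, but genotype and treatment change places for these groups. The labels name neither the mutant allele and its background nor hormone doses and exposure times. Whether the replicates are separate plants or cultures is not stated either, so p-values reflect only how far these libraries differ among themselves, and that variation may be technical.

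Genotype libraries held 3109928 to 4875478 counts each, IAA libraries 432016 to 959735, and JA libraries 839322 to 1917363. A count of 0 therefore allowed up to 0.615 to 0.965, 3.13 to 6.94 and 1.56 to 3.57 CPM (counts per 1000000 counts of a library) in the respective experiments, at a limit of 3 counts for each library. Such limits, and the binomial intervals given below, cover counting error alone. Nuclear identifiers carry no names in the files or in the reference table, so neither the level of ZmICE1a nor endosperm markers were checked here.

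Plastid members took a very small share of the counts in every group. They held 14097 counts over all 24 libraries, and the share per library had a median of 0.0252% and ran from 0.00672% to 0.280%. In bulk tissue, fewer plastids or plastid-rich cells, less RNA per plastid and poor uptake of plastid RNA by 3′-end libraries cannot be told apart. The number of members with at least 1 count ran from 51 to 113 per library, and 0 members were at 0 in all 24. In the 12 JA libraries 32 members were at 0 throughout and 82 had a count somewhere.

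The genes that dominate the chloroplast RNA of a green leaf were nearly uncounted in these 3′-end libraries. How well such libraries capture plastid RNA was not tested. The psbA gene, which encodes the D1 protein of photosystem II, had 3 counts in all, 1 each in untreated IAA replicate 2, IAA-treated replicate 1 and named mutant untreated replicate 1. The rbcL gene, which encodes the large subunit of the carbon-fixing enzyme Rubisco, had 15 counts in 7 libraries and was at 0 in all 12 JA libraries. The 15 photosystem II genes together held 231 counts, the 6 cytochrome b6f genes 136 and the 4 RNA polymerase genes 80. The highest of each class, psbB of photosystem II, petB of the cytochrome complex and rpoC2 of the polymerase, had 28, 34 and 29 counts over the 24 libraries. Photosystem II genes summed to 54, 0 and 12 counts in wild type and 14, 12 and 0 in the mutant of the genotype experiment, and to 74, 15 and 0 without and 13, 13 and 15 with IAA. Libraries of 1 group thus ranged from 0 to 54 and from 0 to 74 counts. Of the 25 genes of these classes none had a count in wild type untreated of the JA experiment.

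Most of the counts lay in a block of neighbouring genes. In the order of the RefSeq map, 27 members stand between the copies of rps7, which encodes a protein of the small ribosomal subunit. They are 7 genes of the NADH dehydrogenase-like complex (ndhF, ndhD, ndhE, ndhG, ndhI, ndhA and ndhH), psaC of photosystem I, rpl32, both copies of rps15, the cytochrome c assembly gene ccsA, the 4 transfer RNA features and 11 open reading frames. These 27 members held from 40.6% to 80.6% of the members' counts in a library, with a median of 63.2%.

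Within that block counts stayed level over long runs of members, with 1 level in most JA libraries and a step at ndhA in the genotype libraries. In wild type untreated of the JA experiment, all 27 members had 4 counts each in replicate 1, 3 counts each in replicate 2 and 6 counts each in replicate 3. In named mutant untreated replicate 2 all 27 had 12 counts each. In untreated IAA replicate 1, which had the highest counts, the 27 members ran from 71 to 82 with a median of 75. In mutant replicate 2 of the genotype experiment most members before ndhA had 21 counts, ndhA had 37 and the members after it had 30 each, and in mutant replicate 3 these values were 12, 24 and 20. Genes of unrelated function, such as rpl32 and ccsA, and unnamed reading frames carried nearly the same number in the same library within each of these runs.

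**Figure D1:**
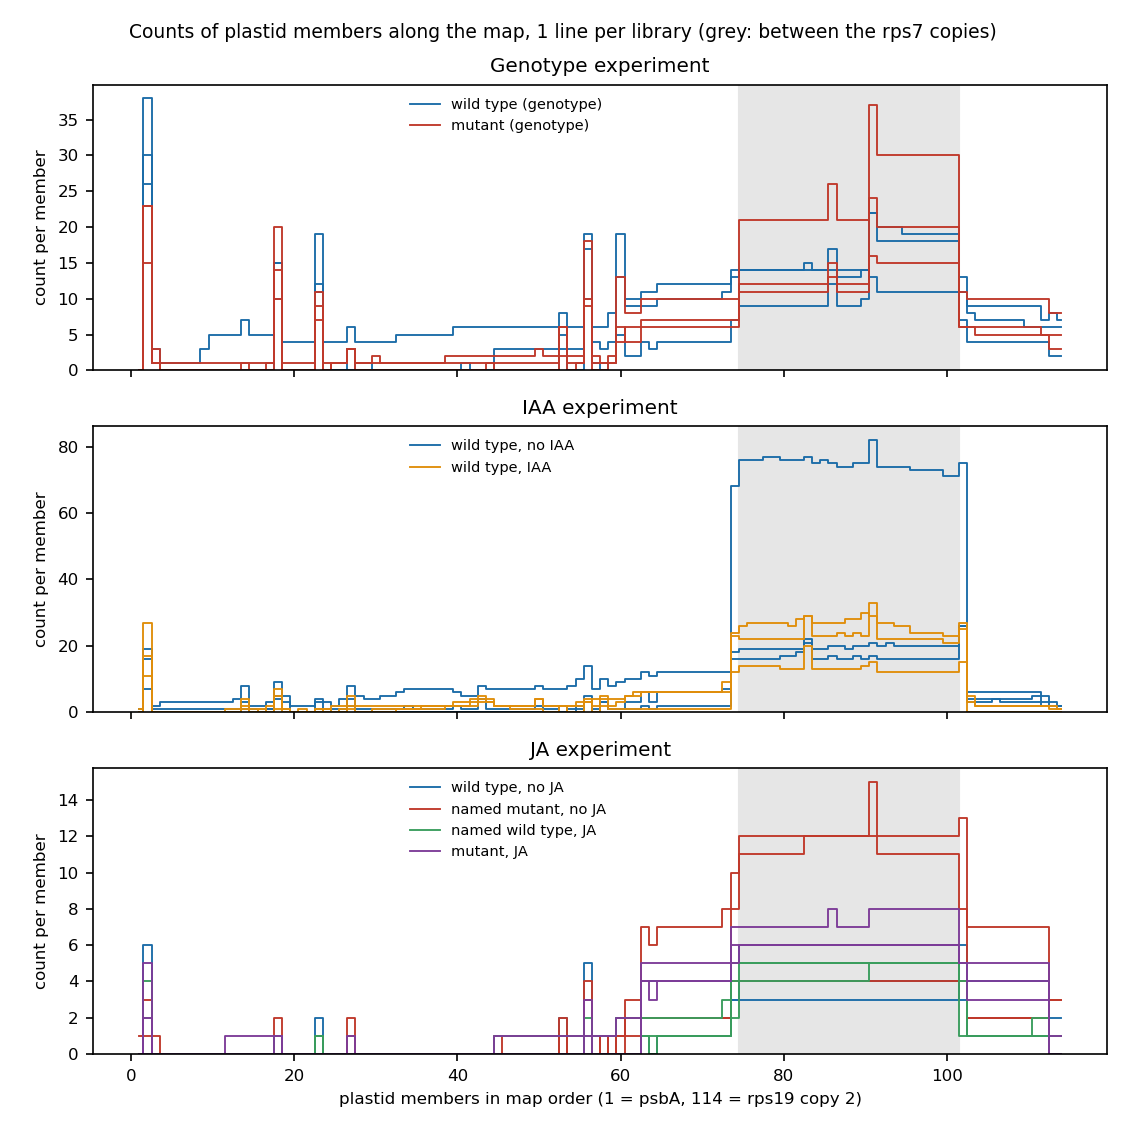
Counts of the 114 plastid members in map order, with 1 line per library and 1 panel per experiment (y axis: count per member; x axis: order of members on the map; grey: the 27 members between the rps7 copies). Counts stay level over long stretches, lie highest in the grey block and show isolated peaks, among them matK, atpF and ycf3, to its left.

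The median count of the block per library was 14, 9 and 14 in wild type and 11, 21 and 12 in the mutant of the genotype experiment. In the IAA experiment it was 75, 20 and 16 without IAA and 13, 22 and 27 with it. In the JA experiment it was 4, 3 and 6 in wild type untreated, 11, 12 and 4 in the named mutant untreated group, 5, 5 and 4 in the named wild type treated group, and 7, 6 and 6 in the JA-treated mutant.

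The block did not hold protein genes alone. Of the 43 plastid ribosomal and transfer RNA features of the files, 15 lie in it by map order, 8 of them ribosomal RNAs, which in plastids are far more abundant than any message. Of the 192 ribosomal RNA values in the 24 libraries, 171 were within 2 counts of the block's median in the same library. Over all 15 RNA features of the block, the largest difference from that median was 9 counts.

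Equal counts in neighbours were common over the whole map. Among pairs of neighbouring plastid members with at least 5 counts in either, 67.1% of 998 pair values over the 24 libraries were equal and 77.6% were within 1 count. Among 175 protein features of the mitochondrial genome 20.6% of 1339 were equal, and among nuclear gene models in order of identifier 0.768% of 538714. Equal plastid pairs made up 65.1% among genotype libraries, 52.1% among IAA libraries and 85.2% among JA libraries. Low counts make ties more likely. The mitochondrial and nuclear values were taken at the same minimum of 5 counts in either feature. That minimum sets no upper limit, so count levels were not matched between the classes.

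**Figure D2:**
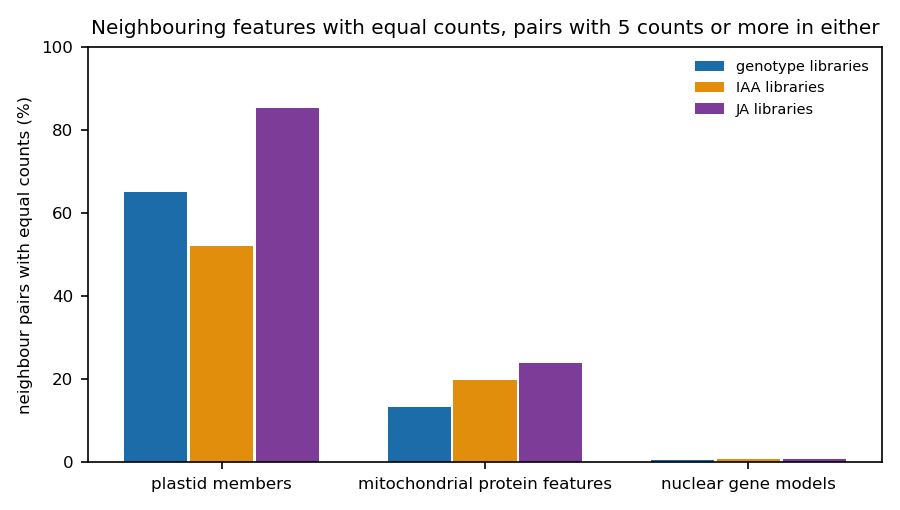
Share of neighbouring feature pairs with equal counts (y axis, %), for pairs with at least 5 counts in either, by feature class and experiment. Bars of the plastid members reach 65.1%, 52.1% and 85.2%, and those of nuclear gene models stay below 1%.

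Of the 113 neighbouring pairs, 27 had the same count in all 24 libraries. These pairs formed 13 runs with 40 members, and the 114 members had 85 distinct count profiles. The longest such run went from rpl23 copy 1, a gene of the large ribosomal subunit, over 7 open reading frames to ZemaCp074, with 117 counts for each of the 8 members. The run from psbK to psbZ held 5 photosystem II genes with 6 counts each. Within single libraries the longest run of members at 1 count value had a median of 14 members and ran from 9 to 29. In mutant replicate 1 of the genotype experiment 22 neighbouring members, from psaI to rpoA, had 1 count each.

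These numbers limit every sum by function. A summed count adds 1 local value once for each member that carries it, and the members are not independent measurements. Why neighbours carry equal counts was not tested, and the labels name no counting program. To separate what belongs to a member from what it shares with its neighbours, the local count of a member was taken as its count above the higher of both neighbours. Local counts came to 806, or 5.72% of all counts of members, and 79 members had none.

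By function, the share of local counts differed widely. The 29 open reading frames held the most counts, 5462, of which 0.0366% were local. The 12 genes of the NADH dehydrogenase-like complex, which feeds electrons into the photosynthetic chain, held 2755 counts, 4.17% of them local. The 14 small-subunit and 11 large-subunit ribosomal genes held 1709 and 980 counts, 9.95% and 4.8% local. The 6 genes of ATP synthase held 192 counts, 52.6% local, nearly all of them in atpF. The 7 other named protein genes held 789 counts, 43.5% local, and the 5 photosystem I genes 381, 0.787% local, with 328 of the counts in psaC inside the block.

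Among members with 50 or more local counts over the 24 libraries, a number set after the values had been seen, were matK with 266 of its 281 counts local, atpF with 100 of 120 and ycf3 with 75 of 84. The matK gene encodes a maturase that assists the splicing of plastid introns, atpF a subunit of the membrane part of ATP synthase, and ycf3 an assembly factor of photosystem I. Along the map, matK accounted for 22.5% of the 1235 upward steps, the sum of the first member's count and every rise from 1 member to the next over the 24 libraries.

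Counts of matK were found in 22 of 24 libraries. They were 30, 38 and 26 in wild type and 15, 23 and 23 in the mutant of the genotype experiment. In CPM, from here on with library sizes scaled by TMM, edgeR's normalization, this was 6.86 ± 0.878 in wild type and 5.73 ± 0.826 in the mutant (SD, n = 3 each). The CPM ranges of these groups overlapped, from 6.08 to 7.81 in wild type and from 4.85 to 6.49 in the mutant.

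In the IAA experiment matK had 19, 16 and 7 counts without IAA and 11, 17 and 27 with it. Its CPM were 21.3, 20.7 and 12.4 without and 27.1, 32.7 and 48.1 with IAA, so that the groups did not overlap. Among the JA groups its means lay between 1.81 and 2.94 CPM, with 0 to 6 counts per library and overlap between all groups.

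The other members described here were lower. The counts of atpF were 15, 15 and 10 in wild type and 10, 14 and 20 in the mutant of the genotype experiment. They were 5, 9 and 4 without IAA and 1, 5 and 7 with it, and 0 to 2 in any JA library. Counts of ycf3 were 19, 11 and 12 in wild type and 7, 11 and 9 in the mutant, 0 to 4 in the IAA libraries and 0 to 2 in the JA libraries. There ycf3 was at 0 in all libraries of the named mutant untreated and JA-treated mutant groups, where the limit of a count of 0 was 2.22 to 3.57 unscaled CPM per library, above the 0.743 ± 0.369 CPM of wild type untreated (SD, n = 3), so that no difference was detectable at this depth.

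**Figure D3:**
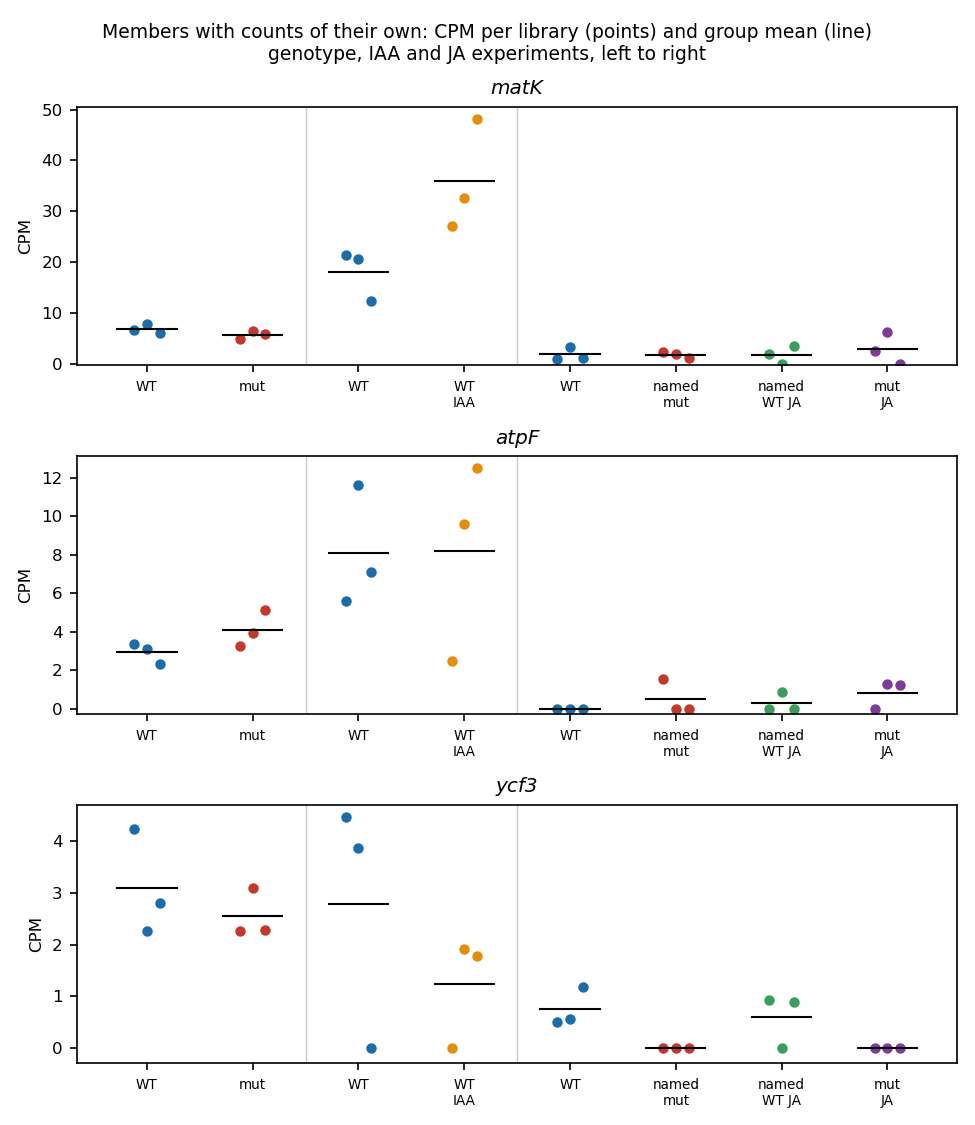
CPM of matK, atpF and ycf3 in each library (points) with the group mean (line), for the genotype, IAA and JA experiments from left to right (y axis: CPM, scaled within each experiment). The 3 IAA-treated libraries lie above the 3 untreated ones for matK, and the JA libraries hold few counts of any of the 3 genes.

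Levels across the 3 experiments were set side by side as a share of the total count. In untreated wild type the members held 0.0235%, 0.0095% and 0.0181% of the counts in the genotype experiment, 0.280%, 0.0903% and 0.106% in the IAA experiment and 0.00887%, 0.00672% and 0.016% in the JA experiment. All 6 IAA libraries were above all 18 others. At like depth, untreated IAA replicate 2, with 827689 counts, held 0.0903%, and the 4 JA libraries of 839322 to 857113 counts held 0.0209% to 0.0375%. No test was made across experiments.

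Spread between replicates was wide in some groups and narrower in others. The summed CPM of all members had a coefficient of variation of 42% in wild type and 17.3% in the mutant of the genotype experiment, 66.4% in untreated and 11.4% in IAA-treated endosperm. Among the JA groups it was 46.2% in wild type untreated, 33% in the named mutant untreated group, 9.21% in the named wild type treated group and 11% in the JA-treated mutant. In untreated IAA endosperm, replicate 1 held 0.280% (95% exact binomial interval 0.269% to 0.291%), which is 3.10 times the 0.0903% of replicate 2.

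**Figure D4:**
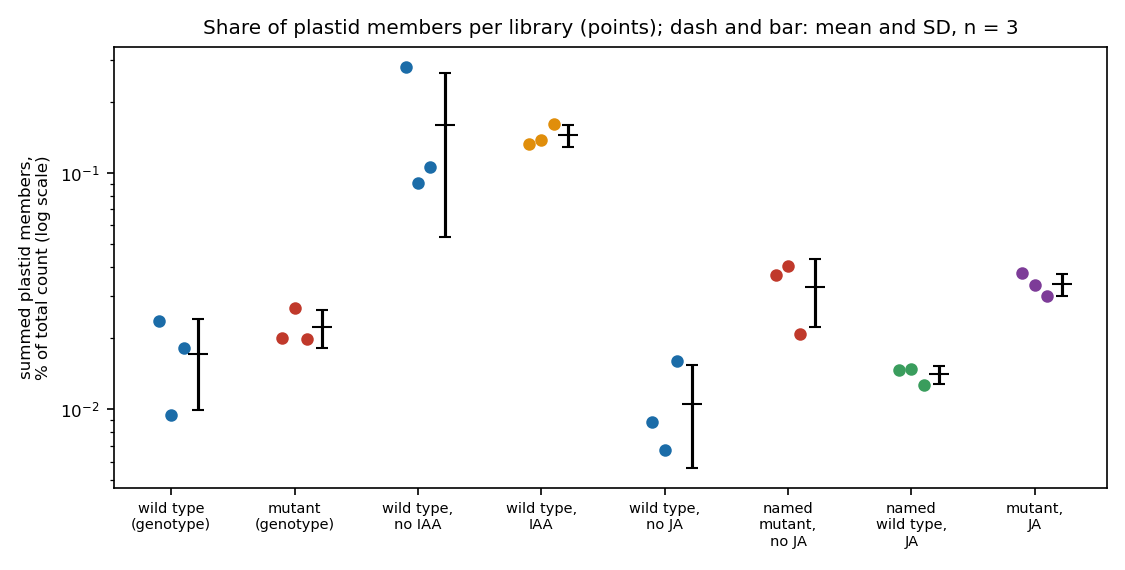
Summed plastid members as a percentage of the total count of each library (y axis, log scale) by group. Points are libraries, and the dash and bar are the mean and SD of 3. The JA-treated mutant (0.0302% to 0.0375%) and the named mutant untreated group (0.0209% to 0.0405%) lie above wild type untreated (0.00672% to 0.016%) and the named wild type treated group (0.0126% to 0.0149%).

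Mutant and wild type were compared in the genotype experiment to find genes that depend on ZmICE1a, and no plastid member passed the test. The summed CPM was 173 ± 72.8 in wild type and 222 ± 38.3 in the mutant (SD, n = 3 each), and the libraries overlapped, at 95.2 to 239 and 198 to 266. Of the 114 members 35 passed the filter on low counts, 27 of them in the block, and these 35 had 16 distinct profiles. The count called by edgeR was 0, against 6.19% of the 17841 features tested, and 11 had an unadjusted p under 0.05, against 19.2% of all features. DESeq2 called 0 as well, with 1 at an unadjusted p under 0.05. Among the 77 members with at least 10 counts over both groups, 11 had all mutant libraries above all wild type ones, where 10.8% of all such features did.

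The 11 members with an unadjusted p under 0.05 were a run of neighbours that ends the block as the map runs. They were ndhA, ndhH, rps15 copy 2, ZemaCp094, ZemaCp095, trnA copy 2, ZemaCp158, trnI copy 2, ZemaCp159, ZemaCp098 and ZemaCp099. For ndhA, a membrane subunit of the NADH dehydrogenase-like complex, counts were 22, 13 and 22 in wild type and 16, 37 and 24 in the mutant. This was 4.24 ± 1.36 and 7.24 ± 2.81 CPM, with a log2 fold change of 0.79 ± 0.307 (SE) and an edgeR adjusted p of 0.146. Mutant replicate 2, at 10.4 CPM, lay above the others, which reached at most 6.12 CPM. From ndhH to ZemaCp099 the wild type counts were 19 or 20, 11 and 18 and the mutant counts 15, 30 and 20 for every member.

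All 27 members of the block had positive log2 fold changes, from 0.57 to 0.80 with a median of 0.65. They formed 2 runs of nearly equal counts, from 0.57 to 0.69 before ndhA and from 0.77 to 0.80 after it, so the 27 values are not 27 independent observations. The 8 tested members outside the block had 3 positive and 5 negative values, with a median of −0.13. Among these, matK had a log2 fold change of −0.26 ± 0.235 (edgeR adjusted p = 0.622), atpF 0.50 ± 0.321 (adjusted p = 0.433) and ycf3 −0.27 ± 0.368 (adjusted p = 0.767). The median over all members tested was 0.61, and over nuclear gene models it was −0.00253. Without wild type replicate 2 the median of the members tested was 0.38, and without mutant replicate 2 it was 0.33, and in each of these fits 0 had an unadjusted p under 0.05.

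**Figure D5:**
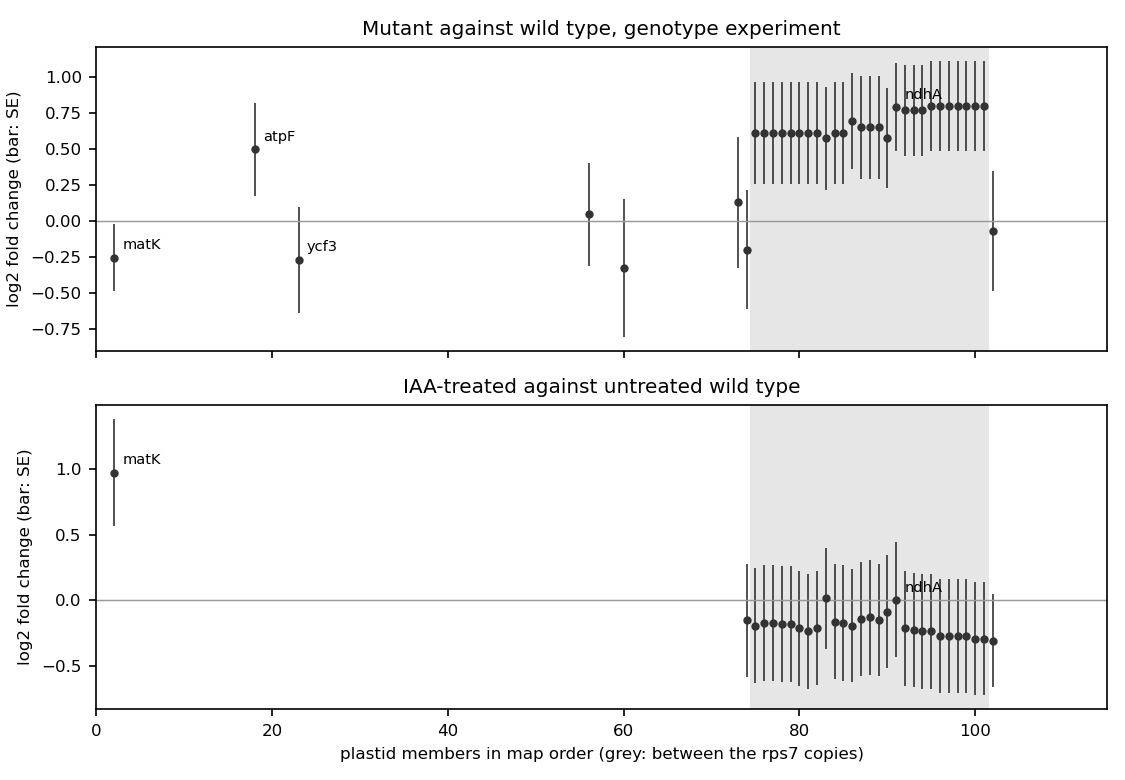
Log2 fold changes with SE of the tested plastid members (y axis) in map order (x axis), for mutant against wild type (35 members) and IAA-treated against untreated wild type (30 members); grey marks the block between the rps7 copies. In the upper panel the grey block sits between 0.57 and 0.80 and members outside it between −0.33 and 0.50, and in the lower panel matK stands alone at 0.97.

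For ndhF, ndhI, ndhG and rpl32 the mutant counts were 11, 21 and 12 in every case, and the wild type counts lay between 9 and 15. Outside the block, rps7 copy 2 had 11, 7 and 13 counts in wild type and 6, 6 and 11 in the mutant, 2.31 ± 0.811 and 2.14 ± 0.583 CPM, a log2 fold change of −0.07 ± 0.416 (edgeR adjusted p = 0.959).

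Wild type endosperm treated with IAA was compared with untreated endosperm, and again 0 members were called by edgeR, against 2.42% of the 7687 features tested. DESeq2 called 0 as well. Summed CPM was 3010, 965 and 1143 without IAA and 1409, 1489 and 1748 with it, so that the treated libraries lay within the range of the untreated ones. Of the 30 members tested, 27 were in the block. Their median log2 fold change was −0.19, and without untreated replicate 1 the median over the members tested was 0.59 with all 30 positive, so that this library set the direction.

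The 1 tested member with an unadjusted p under 0.05, against 14.6% of all features, was matK. Its CPM was 18.1 ± 4.96 without and 35.9 ± 10.9 with IAA (SD, n = 3 each), a log2 fold change of 0.97 ± 0.407 (SE) with an edgeR adjusted p of 0.281. DESeq2 gave 0 members at an unadjusted p under 0.05. It was also the 1 member of 86 with at least 10 counts over both groups whose treated libraries were all above the untreated ones, where 8.41% of all such features were. For ndhA the counts were 82, 21 and 17 without and 15, 33 and 29 with IAA, 49.7 ± 36.6 and 50.7 ± 13.3 CPM, a log2 fold change of 0.00 ± 0.436 (adjusted p = 0.998). For ndhF, the subunit with local counts of 7, 6 and 1 in the treated and 1, 2 and 4 in the untreated libraries, CPM was 52.2 ± 3.27 with and 50.8 ± 31.3 without IAA. Summed local counts in unscaled CPM were 50.01, 62.8 and 59.1 without and 69.4, 103 and 80.5 with IAA, without overlap, and matK held the most local counts in 5 of these 6 libraries. The local counts of matK were 17, 15 and 7 without and 10, 17 and 27 with IAA. With matK left out, the summed local CPM of the groups overlapped, so this sum is not a result separate from matK.

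In the JA experiment only ndhA and ndhD, both subunits of the NADH dehydrogenase-like complex inside the block, passed the filter on low counts, and 112 members were not tested. In named mutant untreated replicate 1 ndhA was 4 counts and ndhD 1 count above the block's median, in JA-treated mutant replicate 1 each was 1 count above it, and elsewhere they differed from it by at most 1 count. The 3 libraries that reached the filter's minimum for these genes were named mutant untreated replicates 1 and 2 and JA-treated mutant replicate 1. Both genes thus entered the test through groups in which they were high, and the share of tested members called in those groups is no evidence about the plastid members. For ndhA the counts were 4, 3 and 6 in wild type untreated, 15, 12 and 4 in the named mutant untreated group, 5, 5 and 5 in the named wild type treated group and 8, 6 and 6 in the JA-treated mutant. For ndhD they were 4, 3 and 6, then 12, 12 and 4, then 5, 5 and 4, and 8, 6 and 6. In CPM ndhA was at 2.4 ± 0.971, 9.32 ± 4.06, 4.43 ± 0.214 and 8.32 ± 1.43 in these groups (SD, n = 3 each).

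The JA-treated mutant was compared with wild type untreated, the contrast in which all labels agreed but genotype and treatment both differ. Both tested genes were called higher there by edgeR; of the 11265 features tested, 5.25% were called higher and 10.2% in either direction, a background that cannot be set against genes let through in this way. The log2 fold change was 1.77 ± 0.449 (SE) for ndhD, with an edgeR adjusted p of 0.0201, and 1.77 ± 0.458 for ndhA, with an adjusted p of 0.022. The CPM ranges did not overlap, 1.69 to 3.5 in wild type untreated and 7.41 to 9.97 in the JA-treated mutant for each gene. The calls were lost with DESeq2 (adjusted p = 0.0602 for ndhA and 0.0623 for ndhD), with edgeR on unfiltered counts (adjusted p = 0.0752 and 0.0796, with 0 of 82 members called) and with edgeR without each library of the JA-treated mutant or wild type untreated replicates 1 or 2, where adjusted p ran from 0.0538 to 0.106.

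In the named mutant untreated group, by title wild type with JA, both genes were called higher than in wild type untreated. The background was 2.74% of features called higher and 5.2% called in either direction, with the same limit. For ndhA the log2 fold change was 1.97 ± 0.42 (edgeR adjusted p = 0.0126) and for ndhD 1.84 ± 0.42 (adjusted p = 0.0199). This comparison shares the wild type untreated libraries with the last, so the calls are not independent. DESeq2 kept ndhA (adjusted p = 0.0333) and not ndhD (adjusted p = 0.0618), and neither was called without wild type untreated replicates 1 or 2 or named mutant replicates 1 or 2, with adjusted p up to 0.106. Named mutant replicate 3, at 4.64 CPM for both genes, was the lowest of its group and lay above the highest wild type untreated library at 3.5 CPM.

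The named wild type treated group, by title mutant without JA, did not pass the test against wild type untreated. The log2 fold change was 0.87 ± 0.484 for ndhA (edgeR adjusted p = 0.475) and 0.77 ± 0.482 for ndhD (adjusted p = 0.56), with 0 of 2 called against 2.73% of all features. The CPM ranges of ndhA did not overlap, at 1.69 to 3.5 in wild type untreated and 4.19 to 4.61 in the named wild type treated group. Neither was at an unadjusted p under 0.05 in edgeR, against 14% of all features. DESeq2 gave no adjusted p for either gene here, and its unadjusted p was 0.186 for ndhA and 0.247 for ndhD.

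The JA-treated mutant was also set against each of the groups with conflicting labels. Against the named mutant untreated group the log2 fold changes were −0.21 ± 0.395 for ndhA and −0.07 ± 0.395 for ndhD, with 0 of 2 called against 3.67% of all features and 0 at an unadjusted p under 0.05 against 16.3%. Against the named wild type treated group they were 0.90 ± 0.449 (edgeR adjusted p = 0.361) and 0.99 ± 0.446 (adjusted p = 0.298), with 0 of 2 called against 2.91% and 1, ndhD, at an unadjusted p under 0.05 against 15.4%. The contrast that asks whether the 2 factors add up on the log scale gave −1.08 ± 0.621 for ndhA (adjusted p = 0.565) and −0.84 ± 0.618 for ndhD (adjusted p = 0.688), with 0 of 2 called against 0.63% and 0 at an unadjusted p under 0.05 against 11.2%. DESeq2 gave no adjusted p for these genes in the 3 contrasts of this paragraph, and its unadjusted p ran from 0.118 to 0.914. In both comparisons with calls, 2 of 2 were at an unadjusted p under 0.05, where 19.2% of all features were in the named mutant untreated group and 24.3% in the JA-treated mutant.

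Over all members of the JA experiment, wild type untreated was again lowest and the named wild type treated group next. Summed CPM was 102 ± 47.1 in wild type untreated, 153 ± 14.1 in the named wild type treated group, 327 ± 108 in the named mutant untreated group and 359 ± 39.5 in the JA-treated mutant (SD, n = 3 each). The named wild type treated group, at 137 to 164 CPM, overlapped wild type untreated, at 66 to 155 CPM. The JA-treated mutant, at 320 to 399 CPM, and the named mutant untreated group, at 203 to 399 CPM, overlapped each other and lay above both of the others. These values describe sums that carry the block's level many times over.

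Upward steps, which enter each rise along the map once, had their lowest mean in wild type untreated and placed the named mutant untreated group above the JA-treated mutant. In upward steps for every 1000000 counts of a library, they were 4.17, 8.04 and 9.03 in wild type untreated, 9.40, 6.07 and 8.25 in the named wild type treated group, 21.4, 21.2 and 13.1 in the named mutant untreated group and 12.9, 17.7 and 10.5 in the JA-treated mutant. The libraries of the last 2 groups lay above those of the first 2. Each rests on 8 to 29 steps. Local counts, 3 to 16 per library, gave 4.61 ± 2.23 unscaled CPM in wild type untreated and 5.49 ± 3.43 in the JA-treated mutant, which overlapped, and 9.35 ± 2.35 in the named mutant untreated group, above wild type untreated without overlap. The named wild type treated group was at 3.56 ± 1.11, below wild type untreated in the mean and overlapping it (SD, n = 3 each). Summed over the 87 members outside the block it was likewise lower in the mean, at 35 ± 9.81 against 38.5 ± 21.7 unscaled CPM, with overlap. On that sum wild type untreated ran from 20.7 to 62.6 unscaled CPM. The JA-treated mutant, at 113 to 143, and the named mutant untreated group, at 78.6 to 140, lay above it. Sums outside the block also carry levels shared by neighbours.

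By function, members outside the block could be read only in part in the JA experiment. The 14 small-subunit ribosomal genes, with both rps15 copies of the block among them, summed to 11.4 ± 4.3 CPM in wild type untreated, 39.9 ± 12 in the named mutant untreated group, 17.1 ± 2.07 in the named wild type treated group and 34.2 ± 6.07 in the JA-treated mutant. The 11 large-subunit genes, with rpl32 of the block among them, stood at 7.92 ± 4.53, 22.7 ± 8.07, 9.93 ± 3.18 and 30.8 ± 3.32 CPM in the same order (SD, n = 3 each). Photosystem II genes had 0, 1, 4 and 4 counts in these groups and cytochrome b6f genes 0, 0, 2 and 2, and all 4 counts of the photosystem II genes in a group came from 1 library.

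Among members with at least 10 counts over both groups, 50 of 52 had all JA-treated mutant libraries above all wild type untreated ones, where 12.1% of all features did, and 29 of 52 did in the named mutant untreated group, where 9.61% did. In the named wild type treated group it was 27 of 50, where 8.84% did. The JA-treated mutant lay above the named wild type treated group for 50 of 51 members, where 8.8% did, and above the named mutant untreated group for 0 of 52, where 9.15% did. Since neighbours carry shared levels, these counts are not counts of independent genes. The minimum of 10 counts was taken over both groups together. A member below it in 1 group could thus enter through the group where it was high. For rpl23 copy 1, counts were 2, 1 and 4 in wild type untreated and 5, 4 and 4 in the JA-treated mutant. The background shares cannot be set against members let through in this way.

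Other features of the libraries also differed between the JA groups, and only in part as the plastid members did. The ENSRNA features, which the files list without names, took 10.7%, 6.84% and 3.33% of the counts in the named mutant untreated group and 1.13% to 3.61% in the other JA libraries. With nuclear gene models alone in the library size, 12 members of the block, with 3 distinct profiles between the named mutant untreated group and wild type untreated, passed the filter and were called there and in the JA-treated mutant, under the same limit of the filter. Of the 11453 features tested with this setting, 352 were called higher in the named mutant untreated group and 607 in the JA-treated mutant. The 175 mitochondrial protein features took 0.11% ± 0.0163 of the counts in wild type untreated, 0.167% ± 0.0553 in the named mutant untreated group, 0.15% ± 0.0037 in the named wild type treated group and 0.189% ± 0.0511 in the JA-treated mutant (SD, n = 3 each). Of the 26 mitochondrial features tested, edgeR called 10 higher and 0 lower in the JA-treated mutant against wild type untreated, with a median log2 fold change of 0.94, and called 4 and 5 higher in the named mutant and named wild type groups. Of all 11265 features tested, 591, 309 and 199 were called higher in these comparisons, in that order. Total counts were 1660718 or more in wild type untreated and 1353622 or fewer in the other JA libraries. The part of these in the plastid values was not tested.

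Copies of the repeated genes could not be separated. The copies of rps7 had 280 and 311 counts over the 24 libraries, with equal counts in 9 libraries and a largest difference of 10. Those of ndhB, another subunit of the NADH dehydrogenase-like complex, had 124 and 97 counts, with equal counts in 12 libraries, and those of rpl23 117 and 90, equal in 13. For the other 5 repeated symbols the copies were equal in 11 or 12 libraries. Reads from near-identical copies may be split or placed at either one, and the labels do not say how the authors' counting treated them.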

How the data were processed

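Endosperm RNA of 24 libraries was analysed from the read counts per feature that the authors deposited, 1 table per library and used unchanged. The submitters' processing notes name the read trimmer Trimmomatic (0.39) and the aligner HISAT2 (2.2.1). They and the labels do not state the counting program, genome build, strand setting or handling of multiply placed reads.

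Whole tables were fitted with edgeR 4.0.16 in R 4.3.3 (TMM scaling, filterByExpr with a minimum count of 10, quasi-likelihood, 2-sided), the genotype and IAA experiments on 6 libraries each and the JA experiment on 12. A member was called at a Benjamini-Hochberg adjusted p under 0.05 over all features tested. SE is the absolute log2 fold change over the square root of F. CPM use TMM-scaled library sizes within an experiment. DESeq2 1.42.0 was an alternative. The procedure was tested on simulated data with 200 changed genes. Each gene was drawn independently there, so that test does not cover levels shared by neighbouring members. Sums by function, local counts and upward steps are descriptions without a test, computed with pandas 2.3.3. The reference table was used for symbols and for the order of neighbours only.

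Members and function classes were chosen with earlier results of these data known. Named are the 12 members of highest mean CPM, every called member and the highest member of each remaining function class; matK, ycf3 and further members were named after their values were seen. The values of 1 further member are not reported here. Libraries were checked for duplicates by chi-square per degree of freedom, which was 1.76 or more in all 24 pairs within groups. Sequences of the members were not used here.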

Additional observations from a re-analysis of the deposited data

How the results depend on the processing

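Of 8 test comparisons, 6 gave 0 called members with RLE scaling, no filter on low counts, nuclear-only library sizes, the replicate block and each library left out. DESeq2 gave 0 in the genotype and IAA experiments and no adjusted p in the other 4. In the named mutant untreated group against wild type untreated, the 2 calls became 1 with DESeq2, 9 of 82 members with no filter, 12 with nuclear-only library sizes, and 0 to 19 with 1 library left out. In the JA-treated mutant against wild type untreated they became 0 with DESeq2, 0 with no filter, 12 with nuclear-only library sizes and 0 to 19 with 1 library left out. Over all features tested in the former, 315 of 11265, 430 of 30799 and 352 of 11453 were called higher with DESeq2, no filter and nuclear-only sizes. In the latter these were 516, 542 and 607. Among libraries of the comparison, 19 came without wild type untreated replicate 3 in both comparisons and without named mutant replicate 3 in the former. Calls were 0 without wild type untreated replicates 1 or 2 in both, without named mutant replicates 1 or 2 in the former and without each JA-treated mutant library in the latter. Without 1 library of a JA group outside the comparison, calls were 9 to 19 in the former and 2 to 19 in the latter, always all members tested. These members too passed the filter through groups in which they were high, so the share called is no evidence about the plastid members. All called members in these fits lay in the block between the rps7 copies. In the former, 9, 12 and 19 called members had 2, 3 and 3 distinct profiles. In the latter, 12 and 19 called members had 1 and 2. Without wild type untreated replicate 3, 204 of 11877 features were called higher in the former and 441 in the latter. With a library left out the filter also let through other numbers of members.

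The filter of 10 CPM in 3 libraries left no member in the genotype and JA experiments and is given for IAA alone. Replicate numbers did not pair the libraries: the correlation of same-numbered deviations was 0.00394, 0.168 and −0.0784 in the genotype experiment, −0.0546 to 0.0337 in the IAA and −0.211 to 0.245 in the JA experiment. With the replicate block the counts of calls were 0 and 2 as before, ndhA had an adjusted p of 0.0298 in the named mutant untreated group and 0.0377 in the JA-treated mutant, and the IAA median moved from −0.19 to 0.01.

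Log2 ratios of summed CPM ranged with 1 library left out from 0.0645 to 0.662 for mutant against wild type, −0.423 to 0.556 for IAA (0.556 without untreated replicate 1), 0.351 to 1.02 for the named wild type treated group, 1.45 to 2.12 for the named mutant untreated group and 1.58 to 2.25 for the JA-treated mutant, each against wild type untreated, and −0.117 to 0.303 and 1.15 to 1.31 for the JA-treated mutant against the named mutant and named wild type groups. The following replacements were added after the data had been seen. Those listed moved a ratio by more than the combined SD of its groups on the log2 scale, and the others did not. For the named wild type treated group against wild type untreated, 0.585 became −0.373 with local counts and −0.138 without the block. For the JA-treated mutant, 0.134 against the named mutant group became −0.438 with upward steps and −0.768 with local counts; 1.23 against the named wild type group became 0.793, 0.625 and, without the block, 1.91; and 1.81 against wild type untreated became 0.952 and 0.252. Without the block, the JA-treated mutant was at 132 ± 16.2 unscaled CPM and the named mutant untreated group at 99.6 ± 35.3. Wild type untreated was at 38.5 ± 21.7 (SD, n = 3 each), below both without overlap. The cause of these changes was not tested. Block counts of 3 to 15 per member in the JA libraries limit all of these values.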
